A study of Mus musculus with 8 samples.

Results

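The cytochrome P450 family was examined in inflamed mouse colon with and without the ubiquitin ligase gene Trim58. Members were the genes whose array annotation gave a single symbol starting with Cyp and a digit, which left 98 genes, 5 of them pseudogenes, of 22180 genes tested. 4 genes had 2 probe sets, and their probe set was chosen by the higher mean over all 8 arrays, so signal levels are given as a description, with no test. The genotype difference did not choose any probe set. The mice were females of the strain C57BL/6-Trim58tm2313Arte, either Trim58-/- (knockout, KO) or Trim58+/+ (wild type, WT), 9 weeks old, with 4 animals in each group. All of them, wild type included, drank 4% dextran sulfate sodium (DSS), which injures the colon epithelium, for 7 days and plain water for 5 days, and the middle colon was taken on day 12. The data therefore compare genotypes within colitis, with no colon free of DSS analysed here. Each mouse gave 1 whole-transcript array, with values on the log2 scale.

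P450 enzymes are heme proteins that insert an oxygen atom into their substrates, using electrons from P450 reductase in the endoplasmic reticulum or from ferredoxin in mitochondria. Members of families 1 to 3 mainly clear drugs, plant compounds and other foreign chemicals, those of family 4 oxidise fatty acids and eicosanoids, and the higher-numbered families make or break down sterols, bile acids, steroid hormones, vitamin D and retinoic acid. In the gut most of the foreign-compound enzymes are made by absorptive epithelial cells, and their RNA is known to fall in inflammation.

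4 P450 genes fell in the knockout colon at a limma adjusted p under 0.05, and none rose. The 4 were Cyp2f2, Cyp2c68, Cyp2s1 and Cyp2d22, all of family 2, which holds 50 of the 98 members. The called genes make up 4.08% of the 98 members, where 0.185% of all genes tested were called lower and 0.392% were called higher. At an unadjusted p under 0.05, 23 members were lower and 2 higher, against 8.1% and 6.22% of all genes. In 15 members every knockout value lay below every wild type value (5.02% of all genes), and in 2 every knockout value lay above (3.79% of all genes). The median difference, knockout minus wild type, was -0.07 over the 98 members and -0.01 over all genes (log2), with 66 members below 0 and 32 above. Of all 22180 genes, 11951 were below 0 and 10229 above.

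Many P450 genes are known mainly from liver, and their probe sets gave little signal here. As a rough guide, 39 members had a mean over all 8 arrays above 5.53, the 95th percentile of the means of 1105 olfactory receptor genes, taken as largely silent in gut. All 4 called members were above that level in both genotypes. Cyp2c23, Cyp2d10 and Cyp2d9 were above it through their wild type mean alone, so the level is used only to describe signal, and no tally of differences is given over the 39.

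**Figure D1:**
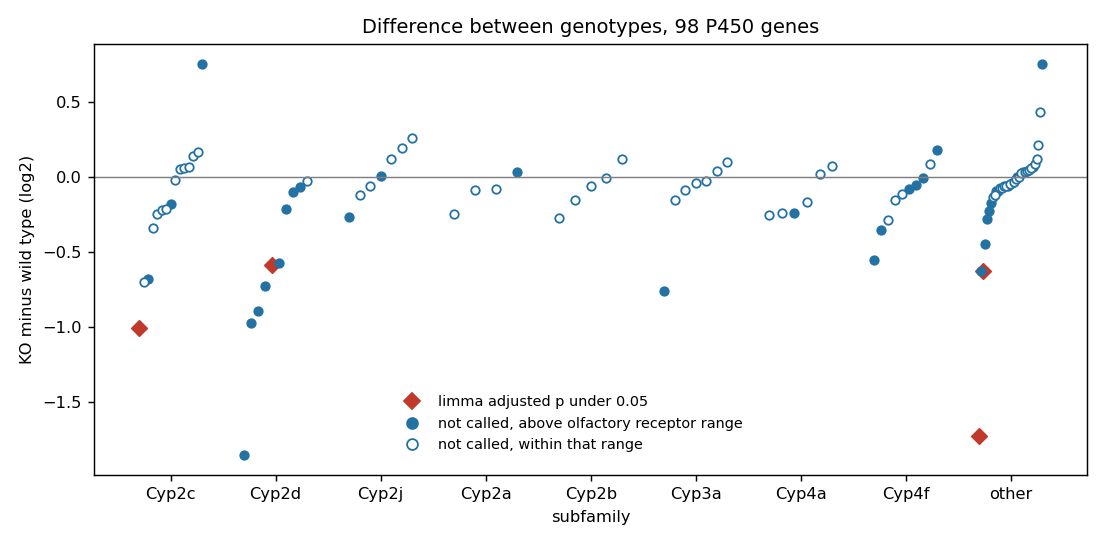
Difference between knockout and wild type (log2) for each of the 98 P450 genes, in the larger subfamilies and in all others together, sorted within each. Red diamonds are the 4 genes past the adjusted limma threshold, filled circles are genes with a mean above the olfactory receptor 95th percentile and open circles the rest. All 10 Cyp2d genes lie below 0, and the open circles lie between -0.70 and 0.43.

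Arrays that stand apart need stating before the single genes. Knockout replicates 1, 2 and 4 carried digestive enzyme genes of the pancreas, with a mean over 17 acinar genes of 10.05, 11 and 10.73. The same mean was 5.47 in knockout replicate 3, and wild type arrays ranged from 5.54 to 5.63. Knockout replicate 3 is thus the one knockout array without that signal. The mean of 7 posterior Hox genes, which mark position along the gut, was 6.03, 6.11, 6.36 and 6.59 in knockout replicates 1 to 4 and 6.45 to 6.68 in wild type, lowest in knockout replicates 1 and 2. Single Hox genes did not all follow that order. Hoxb13 did (6.89, 7.28, 8.10 and 8.01 in knockout replicates 1 to 4), while Hoxa13 did not (7.80, 7.63, 7.70 and 7.72). Hoxd12 was lowest in knockout replicate 4 (5.26). No wild type array carried the pancreatic signal, and the arrays with the lowest posterior Hox mean were knockout arrays too. The comparison of all knockout with all wild type arrays had no covariates, so it does not separate either from genotype. The part of pancreatic tissue or of position along the gut in the P450 differences was not tested. Trim58 itself read 4.82 to 5.37 in knockout and 5.03 to 5.22 in wild type arrays (log2 difference -0.07, limma adjusted p = 0.839), so this probe set gives no check of the genotype labels. The sources used here do not say which exons its probes cover. Array medians lay between 5.73 and 5.83, and correlations between arrays between 0.972 and 0.989.

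The mean level of absorptive colonocyte markers was lower in knockout arrays, while most of its single genes were not called. The mean of 15 absorptive colonocyte markers was 10.73 to 10.91 in knockout and 11.13 to 11.38 in wild type arrays, with no overlap. Of these 15, 2 fell, Slc37a2, a sugar phosphate transporter (3.50-fold lower), and Car4, a carbonic anhydrase (1.80-fold lower), and none rose. 7 of the 15, those 2 included, were lower at the unadjusted threshold, while Car1, Krt20, Vil1, Lypd8, Ceacam1, Slc9a3 and Guca2a differed by -0.09 to 0.04. The goblet cell list overlapped, with means of 10.72 to 11.08 in knockout and 10.92 to 11.24 in wild type arrays, and 1 of 10 genes fell, Capn9 (1.4-fold lower). All 10 smooth muscle markers were below 0 (median -0.35), 7 of them at the unadjusted threshold and none called, with list means of 9.63 to 10.2 in knockout and 9.98 to 10.4 in wild type arrays, which overlapped. In bulk tissue fewer colonocytes and less RNA per colonocyte cannot be told apart, and the part of colonocyte, goblet or smooth muscle content in the P450 differences was not tested. Hepatocyte markers, with list means of 5.25 to 5.33 in knockout and 5.14 to 5.39 in wild type arrays, did not separate the genotypes. Albumin (Alb) read 5.68 to 6.37 in knockout and 5.52 to 6.42 in wild type arrays.

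**Figure D2:**
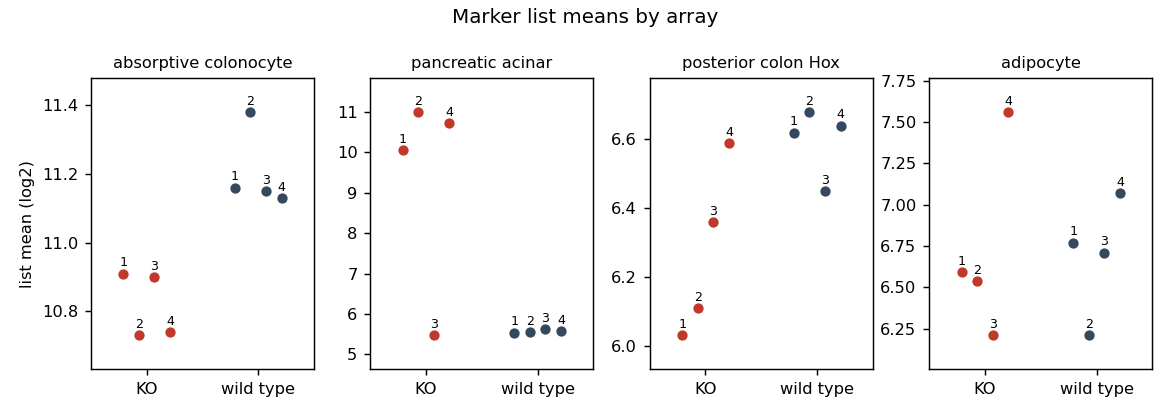
Mean log2 signal of 4 marker lists in each array, knockout at the left and wild type at the right of each panel, with the replicate number above each point. The genotypes do not overlap for colonocyte markers, pancreatic genes are high in knockout replicates 1, 2 and 4, and adipocyte markers are highest in replicate 4 of each genotype.

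Cyp2f2 showed the largest difference of the called members. In mice this enzyme is best known from club cells of the airway, where it activates naphthalene to a toxic epoxide. It read 6.31, 6.17, 7.25 and 7.23 in knockout replicates 1 to 4 and 8.35, 8.73, 8.40 and 8.37 in wild type replicates 1 to 4. All knockout arrays lay below all wild type arrays, with replicates 1 and 2, the arrays with the lowest posterior Hox mean, at the bottom. The means were 6.74 ± 0.58 in knockout and 8.46 ± 0.18 in wild type (SD, n = 4 each), a 3.30-fold lower signal (log2 difference -1.72, 95% interval -2.26 to -1.19, limma adjusted p = 0.0156). Knockout replicate 3, without pancreatic signal, stood 1.22 below the wild type mean. Replicates 1 and 2 were also the lowest knockout arrays in Cyp2c68 and Cyp2d22, but not in Cyp2s1.

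A second, dimmer probe set of Cyp2f2 did not separate the genotypes. It read 5.12 to 5.53 in knockout and 4.99 to 5.65 in wild type arrays (log2 difference 0.04, limma adjusted p = 0.936). With the mean of both probe sets the Cyp2f2 difference was -0.84, still past the threshold (limma adjusted p = 0.0467). Of the 8 fits that left out 1 array, Cyp2f2 stayed past the threshold in 6. Its call ended without wild type replicate 2 (adjusted p = 0.0702) and without wild type replicate 4 (adjusted p = 0.0568).

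Cyp2f2 lies in a cluster of family 2 genes on chromosome 7, with Cyp2s1 as the first measured P450 gene at one end. The 10 P450 genes measured between them, of the Cyp2a, Cyp2b and Cyp2g subfamilies, had log2 differences of -0.27 to 0.12, none of them called, and a single one, Cyp2a22, was above the olfactory receptor level. The 250 bases before the Cyp2f2 start are shown because this gene had the largest difference among the called members, with build GRCm38.p6 and the RefSeq start site (chr7:27119705-27119954, + strand).
Cyp2f2: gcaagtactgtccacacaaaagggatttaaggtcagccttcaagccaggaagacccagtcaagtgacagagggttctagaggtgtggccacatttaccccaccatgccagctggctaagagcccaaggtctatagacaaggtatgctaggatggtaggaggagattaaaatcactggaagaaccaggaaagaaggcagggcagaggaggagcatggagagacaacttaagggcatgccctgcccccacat
3 motifs were searched in it on both strands: GCGTG, the core bound by the aryl hydrocarbon receptor, CAAAGTCCA, a site of the liver and gut factor HNF4A, and TTTATNG, a site of the gut factor CDX2. It held none of them in this window, and neither did the Cyp2s1 window. GCGTG occurred in 28.2% of 27025 promoters of the same length, CAAAGTCCA in 0.381% and TTTATNG in 10.2%.

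Cyp2s1, an epithelial P450 found mostly outside the liver, read 8.34, 8.10, 8.11 and 8.32 in knockout and 8.83, 8.96, 8.57 and 8.99 in wild type arrays. The groups did not overlap and the spread within each was small. The means of 8.21 ± 0.13 in knockout and 8.84 ± 0.19 in wild type (SD, n = 4 each) differed by -0.62 (95% interval -0.87 to -0.38), which is 1.54-fold lower (limma adjusted p = 0.0392). The difference was -0.73 for knockout replicate 3 alone. Among the 8 fits without 1 array the call held in 1, without wild type replicate 3.

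**Figure D3:**
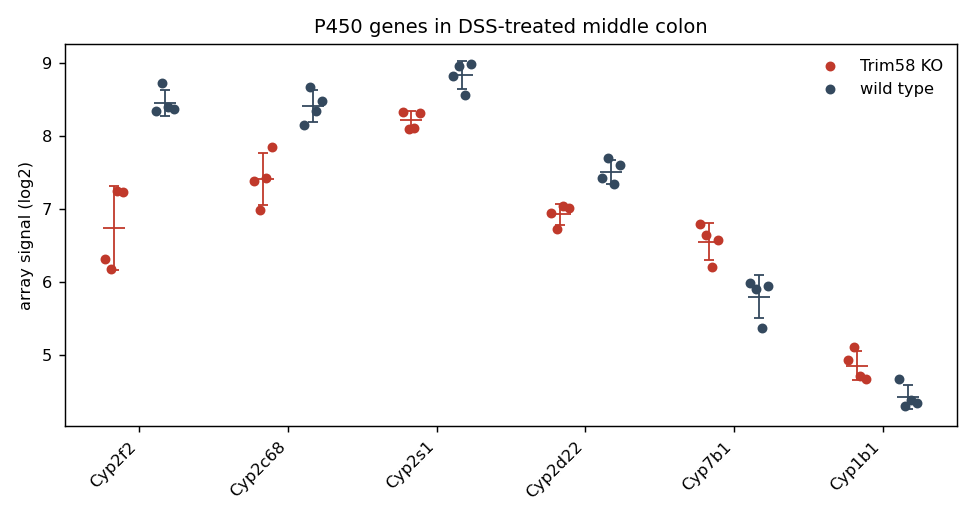
Array signal (log2) of the 4 P450 genes called lower and of Cyp7b1 and Cyp1b1, the 2 members higher at an unadjusted p under 0.05. Points are mice, red for knockout and dark for wild type, and bars show mean and SD (n = 4). In each of the 6 genes the 4 knockout values lie on one side of the 4 wild type values.

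The Cyp2c subfamily, whose members metabolise drugs and arachidonic acid, held the second called gene of the family by size. Cyp2c68 read 7.38, 6.98, 7.43 and 7.85 in knockout and 8.15, 8.68, 8.35 and 8.49 in wild type arrays. Every knockout array was below every wild type array. The means were 7.41 ± 0.35 in knockout and 8.42 ± 0.22 in wild type (SD, n = 4 each), 2.01-fold lower (log2 difference -1.01, 95% interval -1.39 to -0.62, limma adjusted p = 0.0358). For knockout replicate 3 alone the difference was -0.98. The call held in 3 of the 8 fits without 1 array, and ended without knockout replicate 1 or 2 or wild type replicate 2, 3 or 4.

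The other Cyp2c genes did not move together. Of 15 measured, 9 were below 0 and 6 above, 4 were lower at the unadjusted threshold, and 4 were above the olfactory receptor level. Cyp2c55, an arachidonic acid hydroxylase of the mouse colon, read 12.44, 11.61, 11.17 and 11.33 in knockout and 11.91, 12.47, 12.55 and 12.32 in wild type arrays. Knockout replicate 1 lay within the wild type range and the other 3 below it (log2 difference -0.68, 95% interval -1.24 to -0.12, limma adjusted p = 0.244). A second, dimmer Cyp2c55 probe set differed by -0.04 (adjusted p = 0.891).

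Cyp2c65, a close relative of Cyp2c55 and its neighbour on chromosome 19, ran the other way in some arrays. It read 7.10, 7.20, 5.67 and 5.53 in knockout and 5.10, 5.23, 5.88 and 6.28 in wild type arrays. Knockout replicates 1 and 2, the arrays with the lowest posterior Hox mean, were above all others, and knockout replicates 3 and 4 lay within the wild type range (log2 difference 0.75, 95% interval -0.16 to 1.66, limma adjusted p = 0.451). Cyp2c69, at 3.52 to 4.23 in knockout and 4.27 to 5.02 in wild type arrays, had no overlap but a signal within the olfactory receptor range (difference -0.70, adjusted p = 0.143). The remaining 11 Cyp2c genes differed by -0.34 to 0.17. The transcripts of this subfamily are similar, and any of these probe sets may also read a neighbouring gene.

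Cyp2c68 was the one called member whose promoter window held searched motifs. The window (chr19:39741102-39741351, - strand, GRCm38.p6, RefSeq) is printed with the matches in capitals, the core of the aryl hydrocarbon receptor site on the opposite strand first and the HNF4A site second.
Cyp2c68: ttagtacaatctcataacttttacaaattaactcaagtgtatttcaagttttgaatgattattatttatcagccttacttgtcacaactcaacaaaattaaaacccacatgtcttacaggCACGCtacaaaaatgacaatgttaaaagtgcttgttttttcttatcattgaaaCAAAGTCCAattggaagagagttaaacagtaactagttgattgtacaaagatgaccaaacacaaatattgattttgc
The HNF4A site began 77 bases before the start. Of 72 members with a promoter in the table, 8 held CAAAGTCCA (11.1%, against 0.381% of all promoters), 5 of them among 12 Cyp2c promoters. Some of these Cyp2c windows are near copies of each other, so the 8 are not independent. Of the same 72, 22.2% held GCGTG and 12.5% TTTATNG, against 28.2% and 10.2% of all promoters. The Cyp2d22 promoter was not in the table.

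These 8 sites are shown with 10 bases on either side to set the genes with a difference beside their relatives, the HNF4A site in capitals.
Cyp2c68: atcattgaaaCAAAGTCCAattggaagag
Cyp2c40: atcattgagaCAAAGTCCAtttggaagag
Cyp2c69: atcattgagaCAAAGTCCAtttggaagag
Cyp2c65: gatgttggaaCAAAGTCCActgggaggag
Cyp2c70: aggtcaaactCAAAGTCCAaactctgtgt
Cyp3a11: aagagagtacCAAAGTCCAgtgatgcaaa
Cyp3a16: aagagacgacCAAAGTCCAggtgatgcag
Cyp8b1: agcctctgagCAAAGTCCAagggcaggaa
The Cyp2c40 and Cyp2c69 windows each equalled that of Cyp2c68 at 27 of 29 positions, and the Cyp2c65 window at 21. The log2 differences of these genes were -1.01 for Cyp2c68, -0.22 for Cyp2c40, -0.70 for Cyp2c69, 0.75 for Cyp2c65, -0.34 for Cyp2c70, 0.04 for Cyp3a11, -0.15 for Cyp3a16 and -0.07 for Cyp8b1. Genes with the site thus lay on both sides of 0, and 2 of the 8, Cyp2c68 and Cyp2c65, were above the olfactory receptor level. A match of letters does not show binding.

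The Cyp2d subfamily, relatives of the human drug-metabolising enzyme CYP2D6, lay below 0 throughout. All 10 measured genes, neighbours on chromosome 15, had differences below 0, with a median of -0.58. At the unadjusted threshold 6 were lower, and 1, Cyp2d22, passed the adjusted test. Cyp2d22 read 6.95, 6.72, 7.04 and 7.01 in knockout and 7.42, 7.70, 7.34 and 7.60 in wild type arrays. The groups did not overlap (means 6.93 ± 0.15 in knockout and 7.51 ± 0.16 in wild type, SD, n = 4 each), and the signal was 1.5-fold lower (log2 difference -0.58, 95% interval -0.82 to -0.35, limma adjusted p = 0.0452). Its call held in 1 of the 8 fits without 1 array, the fit without knockout replicate 3.

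Cyp2d12 had the largest difference in the family and narrowly missed the threshold. It read 5.36, 5.23, 6.72 and 6.26 in knockout and 7.73, 8.49, 7.22 and 7.54 in wild type arrays. All knockout arrays were lower than all wild type arrays, and knockout replicate 3 came nearest to wild type. The log2 difference was -1.85 (95% interval -2.63 to -1.08, limma adjusted p = 0.0516), and without knockout replicate 3 it was -2.13 with an adjusted p of 0.0139. Cyp2d34 read 10.02, 9.79, 10.54 and 10.38 in knockout and 11.08, 10.91, 11.06 and 10.60 in wild type arrays. These groups did not overlap either (difference -0.73, limma adjusted p = 0.0907).

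Cyp2d10, the transcribed pseudogene Cyp2d13 and Cyp2d9 differed by -0.89, -0.97 and -0.57, each with overlapping groups and limma adjusted p of 0.152, 0.188 and 0.332. Cyp2d26, Cyp2d40, the pseudogene Cyp2d37-ps and Cyp2d11 differed by -0.21, -0.10, -0.07 and -0.03. The subfamily median shift from the wild type mean was -0.59, -0.93, -0.17 and -0.52 in knockout replicates 1 to 4. It was smallest in knockout replicate 3, the array without pancreatic signal. These genes are close paralogs, so their probe sets may share signal and the 10 values are not independent. On the same chromosome the steroid genes Cyp11b1 and Cyp11b2 differed by -0.06 and 0.05.

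**Figure D4:**
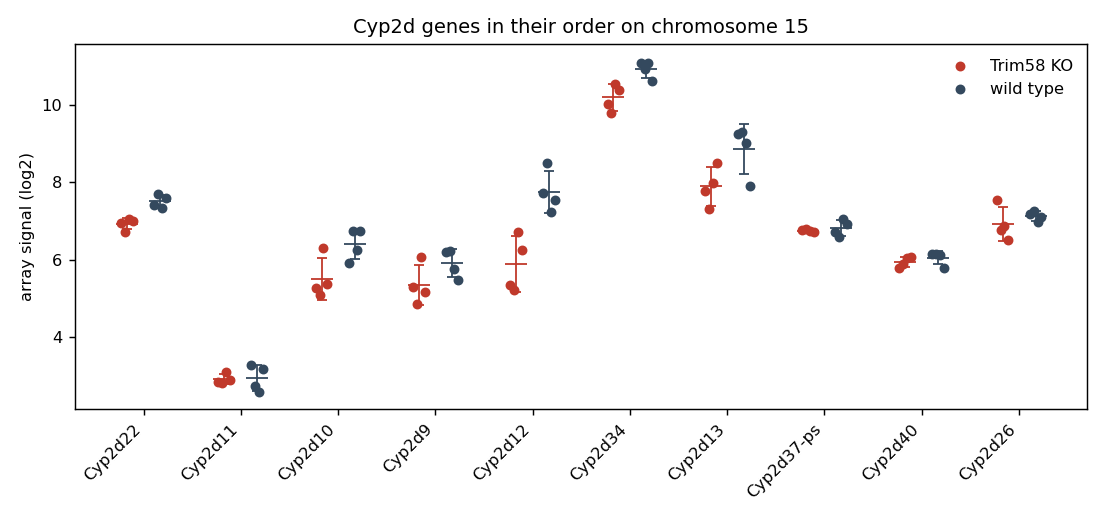
Array signal (log2) of the 10 Cyp2d genes in their order along chromosome 15, red for knockout and dark for wild type, with each mouse as a point and bars for mean and SD (n = 4). The knockout mean is below the wild type mean in each gene, and the groups are apart in Cyp2d22, Cyp2d12 and Cyp2d34.

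Of the remaining family 2 genes, several had non-overlapping groups without passing the adjusted test. Cyp2w1 read 6.19 to 6.52 in knockout and 6.61 to 6.98 in wild type arrays (difference -0.45, limma adjusted p = 0.127). Cyp2j9 read 6.03 to 6.30 in knockout and 6.42 to 6.54 in wild type arrays (difference -0.27, adjusted p = 0.171). Cyp2r1, which adds the first hydroxyl group to vitamin D, read 6.29 to 6.57 in knockout and 6.62 to 6.73 in wild type arrays (difference -0.23, adjusted p = 0.246). The 7 Cyp2j genes, epoxygenases of arachidonic acid, spanned -0.27 to 0.26, and the 5 Cyp2b genes, with no signal above the olfactory receptor level, -0.27 to 0.12.

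Cyp2e1, which oxidises ethanol and is abundant in liver and fat, varied more within than between genotypes. It read 6.41, 6.76, 5.53 and 7.10 in knockout and 6.27, 5.89, 6.06 and 7.31 in wild type arrays. The highest array of each genotype was replicate 4, and these 2 arrays also had the highest mean of 7 adipocyte markers, 7.56 in knockout replicate 4 and 7.07 in wild type replicate 4, against 6.21 to 6.77 in the other 6. The part of adipocyte content in the Cyp2e1 signal was not tested. The difference of 0.06 had a 95% interval of -0.74 to 0.87 (limma adjusted p = 0.961).

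In family 3, Cyp3a13, a Cyp3a enzyme of the mouse intestine, was the one gene of 7 above the olfactory receptor level. It read 8.89, 7.72, 8.59 and 8.71 in knockout and 9.29, 9.44, 9.03 and 9.18 in wild type arrays. Knockout values were all below wild type values, with knockout replicate 2 lowest (means 8.48 ± 0.52 in knockout and 9.24 ± 0.17 in wild type, SD, n = 4 each, difference -0.76, limma adjusted p = 0.145). The other 6 Cyp3a genes, mostly known from liver, differed by -0.15 to 0.10.

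In family 4, none of 20 genes was called and 4 were lower at the unadjusted threshold. Cyp4f13 and Cyp4f16, of a subfamily that hydroxylates eicosanoids, came nearest to the threshold. Cyp4f13 read 7.43, 7.51, 7.61 and 7.80 in knockout and 8.07, 8.16, 7.92 and 8.41 in wild type arrays, without overlap (difference -0.55, 95% interval -0.82 to -0.29, limma adjusted p = 0.0760). Cyp4f16 read 6.46, 6.28, 6.46 and 6.43 in knockout and 6.83, 6.80, 6.73 and 6.68 in wild type arrays, also without overlap (difference -0.35, adjusted p = 0.0792).

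Cyp4f18, which inactivates leukotriene B4 in mouse neutrophils, read 6.31, 6.94, 6.41 and 6.35 in knockout and 6.32, 6.07, 6.30 and 6.62 in wild type arrays. The groups overlapped (difference 0.18, 95% interval -0.17 to 0.52, limma adjusted p = 0.670). In the same arrays 13 of 15 neutrophil markers rose, and the list mean was 7.29 to 8.22 in knockout and 5.40 to 5.92 in wild type. The 1 marker below 0 was Ly6g (difference -0.36, limma adjusted p = 0.621). The 6 Cyp4a fatty acid hydroxylases differed by -0.26 to 0.07.

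Cyp7b1 and Cyp1b1 were the 2 members higher at the unadjusted threshold. Cyp7b1, which hydroxylates oxysterols, read 6.80, 6.64, 6.20 and 6.57 in knockout and 5.99, 5.90, 5.36 and 5.94 in wild type arrays. All knockout arrays were above all wild type arrays (means 6.55 ± 0.25 in knockout and 5.8 ± 0.29 in wild type, SD, n = 4 each). The signal was 1.69-fold higher (log2 difference 0.75, 95% interval 0.40 to 1.11) and missed the threshold (limma adjusted p = 0.0759), while without knockout replicate 3 its adjusted p was 0.0317.

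Cyp1b1, an aryl hydrocarbon receptor target that is expressed in mesenchymal cells, read 4.92, 5.10, 4.71 and 4.67 in knockout and 4.66, 4.30, 4.38 and 4.33 in wild type arrays. The groups touched but did not overlap, within the olfactory receptor range (difference 0.43, limma adjusted p = 0.125). The mean of 10 fibroblast markers was 9.78 to 10.15 in knockout and 9.33 to 9.74 in wild type arrays, and its part in the Cyp1b1 difference was not tested. The classical aryl hydrocarbon receptor target Cyp1a1 read 4.97, 4.74, 5.08 and 4.90 in knockout and 4.98, 5.02, 5.31 and 4.92 in wild type arrays (difference -0.14, 95% interval -0.37 to 0.10, adjusted p = 0.623).

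Among sterol enzymes, Cyp27a1, the mitochondrial sterol hydroxylase, read 7.07, 7.03, 7.40 and 7.74 in knockout and 8.18, 7.92, 7.53 and 8.12 in wild type arrays. Knockout replicate 4 lay within the wild type range (difference -0.62, 95% interval -1.03 to -0.22, limma adjusted p = 0.145). Cyp51, the demethylase of cholesterol synthesis, read 9.42, 8.87, 9.17 and 9.09 in knockout and 9.27, 9.13, 9.20 and 8.95 in wild type arrays. Its difference of 0.001 had an interval of -0.27 to 0.27. Cyp20a1, an enzyme without a known substrate, read 7.74 to 7.92 in knockout and 8.01 to 8.27 in wild type arrays, without overlap (difference -0.28, adjusted p = 0.148).

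No enzyme of steroid hormone synthesis and no enzyme of vitamin D or retinoic acid metabolism passed the adjusted test. Cyp11a1, which starts steroid synthesis, read 4.89 to 5.05 in knockout and 4.61 to 5.40 in wild type arrays (difference -0.05, 95% interval -0.36 to 0.27), and Cyp11b1, which completes corticosterone, 4.46 to 4.70 in knockout and 4.58 to 4.73 in wild type arrays (-0.06, interval -0.24 to 0.12). The vitamin D activating gene Cyp27b1 read 4.78 to 4.94 in knockout and 4.83 to 4.99 in wild type arrays (-0.04, interval -0.20 to 0.13). The inactivating gene Cyp24a1 read 5.17 to 5.43 in knockout and 4.95 to 5.48 in wild type arrays (0.03, interval -0.23 to 0.30). All 4 of these probe sets were within the olfactory receptor range, where RMA compresses differences. Cyp26b1, which degrades retinoic acid, read 5.67, 6.31, 5.83 and 6.08 in knockout and 6.07, 5.92, 5.78 and 6.37 in wild type arrays (difference -0.06, interval -0.42 to 0.29, limma adjusted p = 0.908).

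Genes that work with the P450 enzymes were taken from lists by role. Of 16 receptors and cofactors that sense foreign compounds and bile acids, none passed the adjusted test and 3 were lower at the unadjusted threshold. Nr1i2, the pregnane X receptor, read 8.24, 8.03, 8.15 and 8.22 in knockout and 8.49, 8.56, 8.67 and 8.43 in wild type arrays, without overlap (difference -0.38, limma adjusted p = 0.0838), and Nr1i3, the constitutive androstane receptor, differed by -0.37 (adjusted p = 0.143). Of 11 heme genes, 1 rose, Hmox1, the heme-degrading oxygenase, with 6.74, 7.18, 6.66 and 6.70 in knockout and 6.16, 5.94, 5.83 and 6.24 in wild type arrays. All knockout arrays were above wild type (1.71-fold higher, log2 difference 0.78, limma adjusted p = 0.0361). Urod, a heme synthesis enzyme, differed by -0.24 (adjusted p = 0.287).

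Of 10 listed redox partners, which comprise electron donors and heme-binding partners of P450 enzymes, 7 were measured. P450 reductase (Por), the main donor, Fdxr and Fdx1l are not analysed here. Of the 7, 0 passed the adjusted limma test and 1 was lower at the unadjusted threshold, Fdx1, the mitochondrial ferredoxin, with a difference of -0.25 (adjusted p = 0.258). Pgrmc1, a heme-binding partner of P450 enzymes, differed by -0.14 (adjusted p = 0.617).

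In the vitamin D list of 6 genes, 0 passed the adjusted limma test and 3 were lower at the unadjusted threshold. The receptor gene Vdr read 9.89 to 10.16 in knockout and 10.26 to 10.58 in wild type arrays, without overlap (difference -0.42, limma adjusted p = 0.0883). Its target Trpv6, a calcium channel, read 5.65, 5.57, 6.83 and 6.55 in knockout and 7.23, 7.5, 7.17 and 7.09 in wild type arrays, also without overlap and again lowest in knockout replicates 1 and 2 (difference -1.10, adjusted p = 0.0956).

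No gene was called in the retinoid (18 measured), cholesterol synthesis (17), steroid (11) and epoxide hydrolase and eicosanoid (6) lists, by limma over all genes. At the unadjusted threshold 4 and 3 retinoid genes were higher and lower, 3 cholesterol genes were lower, 2 and 1 steroid genes were higher and lower, and 1 gene of the last list was lower. Examples were Adh1, an alcohol and retinol dehydrogenase, at -0.48 (adjusted p = 0.125), Rdh10, a retinol dehydrogenase, at 0.41 (0.155), Dhcr7 and Tm7sf2, sterol reductases, at -0.34 (0.189) and -0.25 (0.278). Hsd11b1 and Hsd11b2, which activate and inactivate glucocorticoids, stood at 0.52 (0.101) and -0.42 (0.235). Ephx2, the soluble epoxide hydrolase, stood at -0.39 (0.197) and Ephx3 at 0.15 (0.424).

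Every single array moved the count of P450 genes called. Without knockout replicates 1, 2, 3 and 4 in turn, 1, 1, 6 and 2 members were lower, and without wild type replicates 1 to 4, 2, 0, 2 and 0. The count over all 22180 genes moved as well, from 41 lower with all arrays. It was 9, 7, 80 and 36 without knockout replicates 1 to 4, and 31, 1, 28 and 9 without wild type replicates 1 to 4. With knockout replicate 3 alone against the wild type arrays, the differences were -1.22 for Cyp2f2, -0.98 for Cyp2c68, -0.73 for Cyp2s1 and -0.48 for Cyp2d22. Only differences are given from that fit. It takes its spread from the wild type arrays and assumes that the lone knockout array varies like them.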

How the data were processed

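The deposited table held log2 values of 41345 probe sets in 8 arrays, which the authors made by RMA in Affymetrix Expression Console 1.4, per the submitters' processing notes. RMA corrects background, equalises the arrays' distributions and compresses differences near background. Per the labels' protocols, 200 ng of RNA was labelled with biotin. The sources used here name no batch or filter. Arrays have no read depth, so the number of arrays limits precision. The replicates are separate mice.

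Of the probe sets, 23521 carried 1 symbol, 1814 several and 16010 none, and 23328 of the first matched the GRCm38.p6 gene table by Entrez identifier. 6 probe sets with several symbols that included a Cyp gene were not used. Knockout was set against wild type over 22180 genes in a model without covariates (limma 3.58.1, R 4.3.3), 1 probe set each, with Benjamini-Hochberg adjustment and a threshold of 0.05. Intervals and adjusted p-values come from this fit, except where an alternative or a second probe set is named. Promoters came from RefSeq (GRCm38.p6), and 72 of the 98 members matched.

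The family, gene lists, marker lists and tests were chosen with earlier results of these data known. Values by array, or their range, are given for called members, for the 8 with the smallest p in each direction and for 15 with a known role, and any member could be named. From each gene list by role, called genes and the 2 with the smallest p are named. Marker lists are given mainly as list means, and not all called markers are named. Alternatives were a variance trend, array weights, 2 renormalizations, a filter on the lowest 33.3% of genes, other uses of probe sets, a replicate block, leaving out each array, and knockout replicate 3 alone. In simulated data, with 50 of 22180 genes shifted at each size, limma called 50% at a log2 shift of 0.5, 94% at 1 and 100% at 2, with 5 false calls. The simulated noise was drawn separately for each gene and array. It held no signal shared by several arrays or by related genes, so these rates need not hold for the real arrays.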

Additional observations from a re-analysis of the deposited data

Results flagged for a closer look

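5 of 54 groups of 4 arrays, over the 27 members given in full, held a value that stood apart from the other 3 by more of the group's range than Dixon's 95% critical value, and chance gives such a value in about 5% of groups. In knockout arrays, Cyp4f16 was lowest in replicate 2 (6.28) and Cyp4f18 highest in replicate 2 (6.94). In wild type arrays, Cyp2f2 was highest in replicate 2 (8.73), Cyp2j12 highest in replicate 4 (4.51) and Cyp7b1 lowest in replicate 3 (5.36).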

How the results depend on the processing

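The 4 called members stayed below 0 in all 17 alternative fits each. In each of them every knockout value lay below every wild type value, so leaving out arrays could not change the sign. The count of members lower at the adjusted threshold (4) was 2 with equal array medians, 1 with the replicate block and between 0 and 6 without 1 array. Over all genes the lower count (41) was 33, 8 and between 1 and 80 in the same fits. Members higher at that threshold (0) numbered 1 with the replicate block, where Cyp7b1 passed, and 0 to 1 without 1 array. At the unadjusted threshold the higher count (2) was 4 with array weights, 1 without the lowest genes, 0 with knockout replicate 3 alone and 2 to 4 without 1 array, and the lower count (23) was 14 with knockout replicate 3 alone and 19 to 23 without 1 array. The median difference was -0.196 without the lowest genes, where 40 members were left, -0.0917 with knockout replicate 3 alone and -0.0989 to -0.0655 without 1 array. Arrays with the same number did not deviate together (correlations of -0.14, -0.16, 0.04 and 0.05). These values give no sign that the numbers pair the mice, and cannot exclude it. Sign changes touched members that were never called. Cyp51 was -0.0179 with array weights, -0.0069 with equal medians and -0.0932 to 0.092 without 1 array. Without 1 array Cyp2e1 spanned -0.152 to 0.373, Cyp24a1 -0.0799 to 0.0962, Cyp26b1 -0.174 to 0.0516 and Cyp11a1 -0.18 to 0.0824. With knockout replicate 3 alone, Cyp1a1 was 0.0168, Cyp27b1 0.0184 and Cyp2e1 -0.857. The causes of these changes were not tested.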

Other observations

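2 P450 genes whose symbols do not start with Cyp were measured as well. Tbxas1, thromboxane synthase, read 6.27, 6.49, 6.45 and 6.50 in knockout and 6.62, 6.43, 6.35 and 6.72 in wild type arrays (log2 difference -0.11, limma adjusted p = 0.697). Ptgis, prostacyclin synthase, read 7.12, 6.85, 6.51 and 7.07 in knockout and 6.78, 6.57, 6.76 and 6.77 in wild type arrays (difference 0.17, limma adjusted p = 0.625). Neither gene separated the genotypes.

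Of the 8 members with the smallest p on the higher side, 4 besides Cyp1b1 lay within the olfactory receptor range, and these 4 had overlapping groups. Cyp2j12 read 4.29, 4.90, 4.48 and 4.43 in knockout and 4.19, 4.21, 4.18 and 4.51 in wild type arrays (difference 0.26). Cyp2j5 read 3.04 to 3.39 in knockout and 2.85 to 3.2 in wild type arrays, and Cyp2c37 read 3.30 to 3.86 in knockout and 3.12 to 3.61 in wild type arrays. Cyp26c1, a retinoic acid hydroxylase, read 4.43 to 4.83 in knockout and 4.15 to 4.77 in wild type arrays. Their limma adjusted p lay between 0.427 and 0.651.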
